A study of Mus musculus with 6 samples.

Results

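The 10 genes described here carry cholesterol between brain cells, export it, sense it, turn it over or take it up. They are the lipid carriers Apoe and Clu, the exporters Abca1 and Abcg1, the esterifying enzyme Lcat, the sterol-sensing nuclear receptors Nr1h2 and Nr1h3, the hydroxylase Cyp46a1 and the lipoprotein receptors Vldlr and Lrp8. They were chosen by name from 26264 genes in the deposited expression table, and all 10 of 10 passed the filter of a mean of at least 1 TPM (a share of the library already divided by transcript length). The 6 libraries came from brains of Gfap-Cre; RiboTag mice, which were on control diet (3 libraries) or on PLX5622 diet at 1200 ppm (3 libraries) for 1 month. All 6 libraries share the Cre and the RiboTag allele, and the diet is the only labelled difference between the groups. PLX5622 blocks Csf1r, a receptor kinase that microglia need to survive. Ribosomes that carry the epitope tag were pulled down from homogenised brain with an antibody. The pull-down aims at the ribosome-bound mRNA of cells in which Gfap-driven Cre was or had been active. Per the labels these were astrocytes with some neurons and oligodendrocytes. Microglial transcripts were present too, as given below, and how they came into the pull-down was not tested. The series asks if PLX5622 changes cholesterol metabolism in the cells that carry the tag.

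As background, the brain makes its own cholesterol, because plasma lipoproteins do not cross the blood-brain barrier. Astrocytes load cholesterol through Abca1 and Abcg1 onto particles that carry Apoe, and neurons take these up through receptors of the LDL receptor family such as Lrp8 and Vldlr, which are also the receptors for reelin. Surplus cholesterol in neurons is hydroxylated by Cyp46a1 to an oxysterol that can leave the brain, and oxysterols activate the liver X receptors (LXR) encoded by Nr1h2 and Nr1h3, whose known targets include Abca1, Abcg1 and Apoe.

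The promoter of Abca1 is shown because it is the only promoter window found for the members that holds the DR4 motif, the paired half-sites to which LXR binds with its partner RXR. Windows of 300 bases around a gene start (250 before and 50 after) were found in RefSeq's table (GRCm38.p6) for 8 of the 10 members, 14 windows in all. Clu and Abcg1 had no window there, so their promoters were not searched. DR4 was searched on both strands as GGTCANNNNNGGTCA, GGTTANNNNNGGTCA, GGTCANNNNNGGTTA and GGTTANNNNNGGTTA. It occurred in 70 of 32851 promoter windows of the mouse genome (0.213%). In Abca1 the match lies 53 to 67 bases before the start on the strand opposite to the gene. The 250 bases before the Abca1 start (chr4:53159896-53160145, minus strand, GRCm38.p6) are given in the direction of the gene with the match in capitals. The match as it reads on its own strand and that of Srebf1, a known LXR target and the only other one among 9 windows of 6 listed LXR targets that held the motif (chr11:60210639-60210653), follow. The files use build mm39, so these positions are RefSeq's and not the authors'.
Abca1 promoter: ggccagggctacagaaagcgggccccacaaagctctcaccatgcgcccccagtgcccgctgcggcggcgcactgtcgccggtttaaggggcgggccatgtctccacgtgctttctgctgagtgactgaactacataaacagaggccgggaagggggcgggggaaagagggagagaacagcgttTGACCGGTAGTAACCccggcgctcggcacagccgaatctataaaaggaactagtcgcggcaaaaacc
Abca1 match: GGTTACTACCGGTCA
Srebf1 match: GGTTACTGGCGGTCA
The Abca1 and Srebf1 matches share 13 of 15 bases. A sterol regulatory element, searched as TCACNCCAC on both strands, was in 408 windows of the genome (1.24%) and in 0 of the 14 windows of the members. Such matches describe letters and not binding.

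Before the values, 3 properties of the libraries bear on every comparison. First, the libraries labelled control 3 and PLX5622 3 went against their labels in microglial transcripts: the 12 microglia markers summed to 139, 85.9 and 37.0 TPM in control 1, 2 and 3 and to 39.9, 28.6 and 56.4 TPM in PLX5622 1, 2 and 3. Csf1r itself was at 4.33, 4.27 and 0.118 TPM in the first group and at 0.811, 0.0208 and 2.05 TPM in the second. The 11 microglia markers tested had a median of −1.05 (log2) by label and of −3.37 in the authors' deposited table. Cx3cr1, C1qb, C1qc and Ctss were listed at 0 in the library labelled PLX5622 2. Second, the libraries labelled control 1 and control 3 held less of long transcripts than the other 4: their deviation from the mean of all libraries had a Spearman rho with relative transcript length of −0.524 and −0.541 across 13083 genes, against 0.209 to 0.482 in the rest. Last, summed levels of cell type markers differed by label, although 0 of these markers passed the adjusted limma test: 12 astrocyte markers summed to 24990 to 35192 TPM on control and 39889 to 44519 TPM on PLX5622, and 12 neuron markers to 2285 to 2762 and 1400 to 2170 TPM. Their median differences were 0.50 and −0.56 (log2) by label and 0.11 and −0.23 in the authors' deposited table. In such bulk samples, more or fewer cells of a type, more or less RNA per cell and more or less untagged RNA in the pull-down cannot be told apart. The part of the length trend in the marker levels was not tested.

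In TPM, which compares genes per length, Apoe was the most abundant of all 26264 genes in each of the 6 libraries, with a mean of 47776 ± 8637 TPM (SD over 6 libraries), which is 3.95% to 6.37% of all TPM. Clu ranked between 6 and 8 and stood at 10699 ± 703 TPM, 4.47-fold below Apoe. Lcat followed at 391 ± 43.5 TPM, Cyp46a1 at 140 ± 13.0 TPM and Nr1h2 at 48.3 ± 5.08 TPM. From Apoe down to Lrp8 at 20.3 ± 7.48 TPM, no neighbours in this order overlapped over the 6 libraries. Below that the ranges overlapped, with Abca1 at 14.97 ± 4.40, Nr1h3 at 12.1 ± 1.79, Abcg1 at 9.23 ± 1.61 and Vldlr at 9.14 ± 1.81 TPM. Abcg1 was above Vldlr in 3 of 6 libraries, so these neighbours have no order here. The spread over libraries was widest in Lrp8, whose highest library was 3.11 times its lowest, and narrowest in Clu, at 1.20 times.

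**Figure D1:**
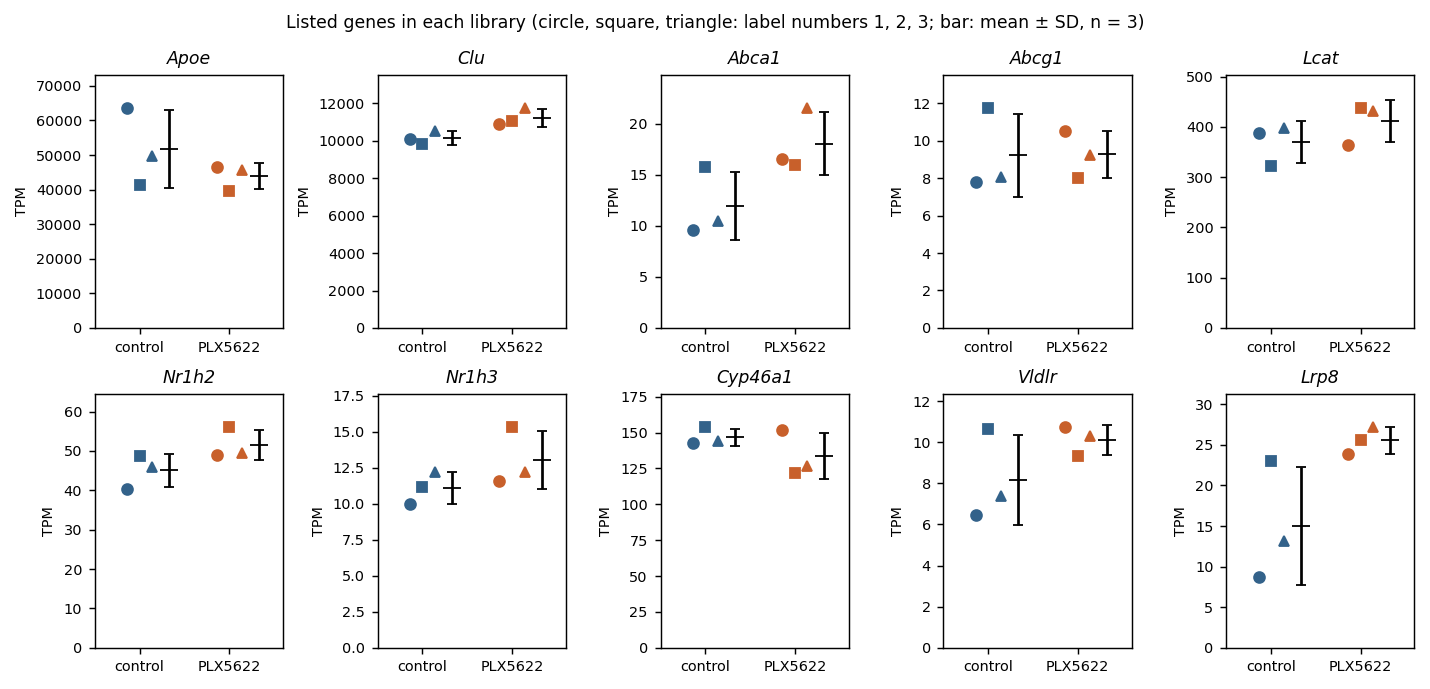
Level of each member in TPM (linear axes from 0) in the 3 control and 3 PLX5622 libraries by label, with mean ± SD (n = 3). Abca1, Abcg1, Vldlr and Lrp8 share a pattern in which the libraries labelled control 1 and control 3 lie below the member's mean and the one labelled control 2 lies above it. For Abcg1 the library labelled PLX5622 2 is as low.

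By label, the median difference of the members was 0.17 on the log2 scale against 0.089 over all 13084 tested genes, and no member passed the test. The numbers were 0 higher and 0 lower of 10 by limma on log2(TPM + 1) with Benjamini-Hochberg adjustment over all tested genes at 0.05, where the background was also 0% (0 of 13084). The lowest adjusted p was 0.205, for Abca1 and Lrp8. Before adjustment 2 of the 10, Abca1 and Lrp8, had a limma p below 0.05, both higher, against 22.7% of all tested genes (14.7% higher and 8.02% lower). The PLX5622 libraries lay wholly above the control libraries for 4 members (Clu, Abca1, Nr1h2 and Lrp8), against 19.4% of all tested genes. They lay wholly below for 0 members, against 9.39%. In the differences, 8 of 10 members were above 0, as were 61.1% of all tested genes.

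Apoe, which encodes the main lipid carrier of the brain and is made by astrocytes and also by microglia, was lower by label without a clear gap. By label, it stood at 63732, 41437 and 49703 TPM in control 1, 2 and 3 and at 46585, 39480 and 45721 TPM in PLX5622 1, 2 and 3. The library labelled control 1 was the highest of all and the groups overlapped. The difference was −0.21 ± 0.22 (log2, SE, n = 3; 95% interval −0.71 to 0.28; limma adjusted p = 0.535), and −0.051 ± 0.18 without the library labelled control 1, so that this library made most of it. The same library had the most microglial transcripts, and their part in the Apoe level was not tested. Clu, clusterin, a second abundant carrier of astrocytes that also acts as a chaperone outside cells, stood at 10121, 9816 and 10530 TPM on control and at 10889, 11055 and 11780 TPM on PLX5622. Every PLX5622 library was above every control library, by a small step: the difference was 0.15 ± 0.15 (95% interval −0.19 to 0.48; limma adjusted p = 0.533), and 0.038 ± 0.19 with the third library of each diet exchanged.

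Abca1, which passes cholesterol and phospholipid to lipid-poor Apoe, was the exporter that was higher by label. By label, it stood at 9.60, 15.7 and 10.4 TPM in control 1, 2 and 3 and at 16.5, 16.0 and 21.6 TPM in PLX5622 1, 2 and 3. The groups did not overlap, but the library labelled control 2 came close to the lowest PLX5622 library. The difference was 0.58 ± 0.20 (log2, SE, n = 3; 95% interval 0.13 to 1.02; limma adjusted p = 0.205). It was 0.37 ± 0.29 (adjusted p = 0.855) without the third library of each diet, and 0.78 ± 0.16 (adjusted p = 0.00526) without the one labelled control 2, where 28.7% of all tested genes were called (19.9% higher). Abcg1, which loads further cholesterol onto particles that already hold lipid, differed less by label: it stood at 7.79, 11.8 and 8.07 TPM on control and 10.5, 8.03 and 9.24 TPM on PLX5622. Its highest library was labelled control 2, the groups overlapped and the difference was 0.022 ± 0.18 (95% interval −0.38 to 0.42). That sign turned under several alternatives, among them the scaling by size factors (−0.058). Lcat, which esterifies cholesterol on secreted particles, stood at 389, 323 and 399 TPM on control and 364, 439 and 433 TPM on PLX5622. The groups overlapped, with a difference of 0.15 ± 0.14 (limma adjusted p = 0.476), which was 0.059 ± 0.12 without the library labelled control 2.

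Both liver X receptors were slightly higher by label. Nr1h2, LXR beta, the more widely expressed form, stood at 40.4, 48.8 and 45.9 TPM on control and at 49.1, 56.0 and 49.5 TPM on PLX5622. The groups did not overlap, with 48.8 TPM in the highest control library and 49.1 TPM in the lowest PLX5622 library. Its difference was 0.19 ± 0.13 (log2, SE, n = 3; limma adjusted p = 0.348), and 0.12 ± 0.11 without the library labelled control 1. Nr1h3, LXR alpha, stood at 9.99, 11.1 and 12.2 TPM on control and at 11.6, 15.3 and 12.2 TPM on PLX5622. Only the library labelled PLX5622 2 stood apart from the rest, the groups overlapped, and the difference was 0.21 ± 0.15 (limma adjusted p = 0.387). Without that library it was 0.096 ± 0.16, and without the one labelled control 1 it was 0.14 ± 0.15. In the reference annotation (GENCODE M21) 1.35% of the Nr1h3 exon bases also belong to a predicted gene, and none of those of the other 9 members are shared with another gene.

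Cyp46a1, the cholesterol hydroxylase of neurons, differed less by label than the median neuron marker but lay within the range of these markers. It stood at 142, 154 and 144 TPM on control and at 152, 122 and 127 TPM on PLX5622. The libraries labelled PLX5622 2 and 3 were the lowest, and the groups overlapped. The difference was −0.14 ± 0.12 (log2, SE, n = 3; 95% interval −0.42 to 0.14; limma adjusted p = 0.481). It was −0.23 ± 0.12 with scaling by size factors and −0.24 ± 0.13 without the library labelled PLX5622 1. It was −0.078 ± 0.15 without the one labelled PLX5622 2, and −0.017 ± 0.15 with the third library of each diet exchanged. The median difference of the 12 neuron markers in the same fit was −0.56, and 12 of 12 were below 0. They ran from −0.86 in Stmn2 to −0.025 in Gad1, and 0 passed the adjusted test.

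Lrp8, a receptor for Apoe particles and reelin, had the largest difference of the members. By label, it stood at 8.74, 23.0 and 13.2 TPM in control 1, 2 and 3 and at 23.9, 25.6 and 27.2 TPM in PLX5622 1, 2 and 3. The PLX5622 libraries lay close together and above the control libraries, of which the one labelled control 2 was near them. The difference was 0.83 ± 0.27 (log2, SE, n = 3; 95% interval 0.21 to 1.45; limma adjusted p = 0.205). It was 0.75 ± 0.36 (adjusted p = 0.855) without the third library of each diet, 0.52 ± 0.20 without the one labelled control 1 and 1.17 ± 0.17 (adjusted p = 0.00191) without the one labelled control 2, where 3 of the 10 members were called, a share near the 28.7% of all tested genes. Vldlr, a close relative and the other reelin receptor, stood at 6.47, 10.7 and 7.38 TPM on control and at 10.7, 9.32 and 10.3 TPM on PLX5622. The library labelled control 2 lay among the PLX5622 libraries, so the groups overlapped. The difference was 0.30 ± 0.18 (95% interval −0.10 to 0.70; limma adjusted p = 0.310). It was 0.17 ± 0.16 (adjusted p = 0.646) without the library labelled control 1, 0.49 ± 0.15 (adjusted p = 0.0302) without the one labelled control 2, and 0.016 ± 0.22 with the third library of each diet exchanged.

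The differences by label moved in part with transcript length among the members. With the tested genes cut into 3 equal classes of length, Abca1, Abcg1, Vldlr and Lrp8 were in the longest class and the other 6 members in the shortest, with 0 in the middle. Lrp8, Abca1 and Vldlr had the largest differences of the 10. Abcg1, at 0.022, went against this and was below the short members Clu, Lcat, Nr1h2 and Nr1h3. The measure of length was the mean normalized reads per TPM, which for Abca1 was 6.32 times that of Apoe. All 4 long members were below their own mean in the libraries labelled control 1 and control 3, and 0 of 4 in those labelled control 2, PLX5622 1 and PLX5622 3. The median difference over all tested genes was −0.11 in the shortest class and 0.22 in the longest. After each library was corrected by loess on length, Lrp8 differed by 0.60 ± 0.19 (adjusted p = 0.157) and Abca1 by 0.34 ± 0.12 (adjusted p = 0.169). Vldlr then differed by 0.070 ± 0.10, Abcg1 by −0.20 ± 0.12 and Lcat, the shortest, by 0.27 ± 0.10 (log2, SE, limma). The order of Lrp8 and Abca1 at the top was the same with and without this correction, and without the library labelled control 2 the diets and the length trend cannot be told apart.

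**Figure D2:**
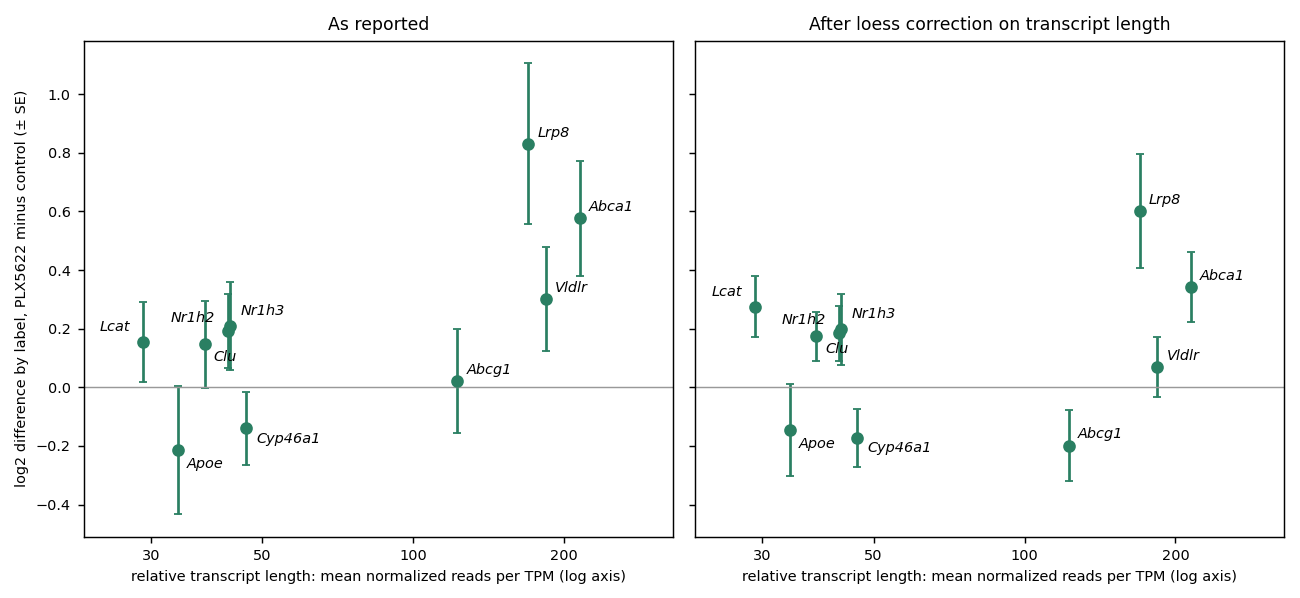
Difference between the labelled diets (log2, ± SE) of each member against relative transcript length (mean normalized reads per TPM, log axis), as reported and after the loess correction. Lrp8 goes from 0.83 to 0.60, Abca1 from 0.58 to 0.34 and Vldlr from 0.30 to 0.070, while of the 6 short members Lcat moves most, from 0.15 to 0.27.

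The authors' deposited table of their own comparison gave smaller values for the long members. Its numerator is not named, and negative values were taken to mean a lower level on PLX5622. In the authors' deposited table Abca1 had a log2 fold change of −0.15 (SE 0.28, 95% interval −0.70 to 0.40), Vldlr of −0.034 (SE 0.21) and Lrp8 of 0.078 (SE 0.37, 95% interval −0.64 to 0.80). Apoe stood there at −0.23 (SE 0.26), against −0.30 by label when scaled by size factors. Clu was at −0.021 (SE 0.16) and Abcg1 at −0.16 (SE 0.19) in the authors' deposited table. In the authors' deposited table the largest positive value was that of Nr1h3, 0.18 (SE 0.20), followed by Lrp8 and by Nr1h2 at 0.076 (SE 0.16). Lcat was at 0.012 (SE 0.20) and Cyp46a1 at −0.076 (SE 0.18) in the same deposited table. Of the 10 members 0 were called in the authors' deposited table, where 0.0698% of 20062 genes were, and 0 had an unadjusted p below 0.05, against 0.847%. Their deposited DESeq2 p-values ran from 0.344 to 0.954 (adjusted p = 0.99996 for each).

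The fold changes in the deposited table did not match the labelled grouping of the TPM columns. They were set against differences of mean log2 TPM scaled by size factors. By label the gap was as large as 0.72, in Lrp8, and with the third library of control and that of PLX5622 exchanged it was at most 0.057. For 10 of 10 members the exchanged grouping was nearer to the deposited value. Across 13060 genes, which are not independent replicates, the deposited values correlated with the differences by label at r = 0.547 and with those of the exchanged grouping at r = 0.963. In that grouping, which the labels do not give, the limma differences of Abca1 and Lrp8 were −0.077 ± 0.30 and 0.17 ± 0.42 (log2, SE). Which source carries the right headings was not tested, so values by label and deposited values are kept apart.

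**Figure D3:**
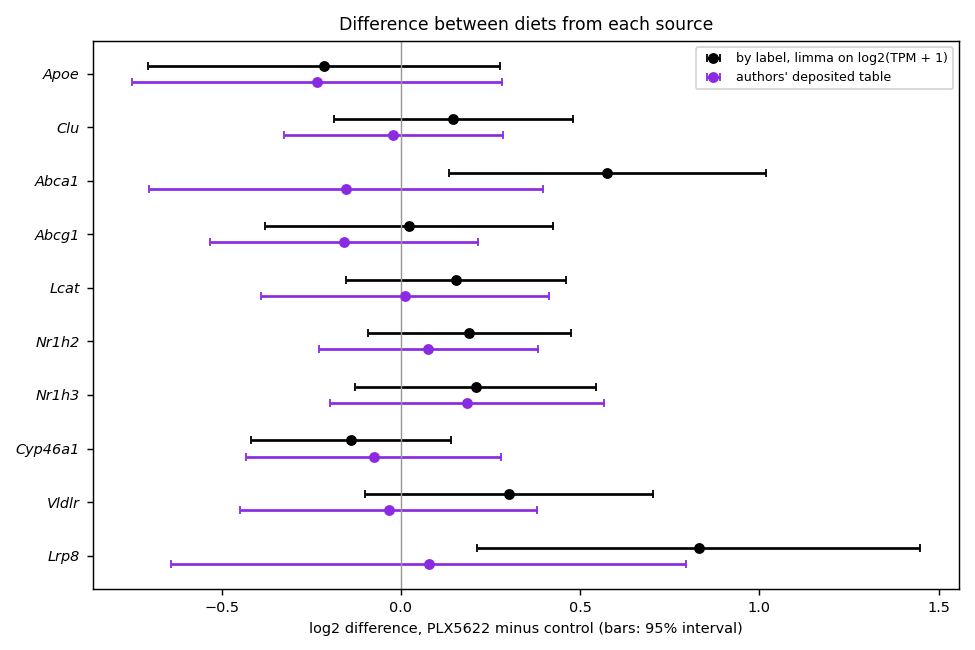
Log2 difference of each member with its 95% interval, by label from limma on log2(TPM + 1) in black and from the authors' deposited table in purple. The intervals of all 10 deposited values include 0, and by label those of Abca1 and Lrp8 lie above 0 before adjustment.

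Ratios within a library, taken as differences of log2(TPM + 1), depend little on the scaling of that library and set the members against each other. With 3 libraries against 3, an exact two-sided permutation test cannot go below p = 0.1, and 6 ratios were compared. The log2 ratio of Abca1 to Abcg1 was 0.27, 0.39 and 0.33 by label in control 1, 2 and 3 and 0.61, 0.91 and 1.14 in PLX5622 1, 2 and 3. All 3 PLX5622 libraries were above the control libraries, which lay close together. The ratio differed by 0.55 (exact permutation p = 0.1, adjusted over the 6 ratios p = 0.15; range of differences between single libraries 0.22 to 0.87), by 0.43 without the third library of each diet, and by 0.018 with them exchanged.

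The proportion of the receptors also differed by label. The log2 ratio of Vldlr to Lrp8 was −0.38, −1.04 and −0.76 on control and −1.09, −1.36 and −1.32 on PLX5622. The groups were apart by 0.048, and the means differed by −0.53 (exact permutation p = 0.1, adjusted p = 0.15). The difference was −0.15 with the third library of each diet exchanged (exact permutation p = 0.6). The log2 ratio of Nr1h2 to Nr1h3 was 1.93 ± 0.10 and 1.91 ± 0.095 (SD, n = 3), a difference of −0.017 with differences between single libraries from −0.23 to 0.16 (exact permutation p = 0.8). Apoe to Clu was 2.32 ± 0.30 and 1.96 ± 0.13 (exact permutation p = 0.2, n = 3), a difference of −0.36 that was −0.19 without the library labelled control 1 and −0.17 with the third library of each diet exchanged.

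Set against the cells they are known from, Cyp46a1 and Apoe differed in opposite directions by label. Cyp46a1 stood above the mean level of the neuron markers by 0.58, 0.54 and 0.55 (log2) on control and by 0.79, 1.08 and 0.97 on PLX5622. The control libraries lay close together and the groups did not overlap, with a difference of 0.39 (exact permutation p = 0.1, adjusted p = 0.15). It was 0.38 without the third library of each diet and 0.11 with them exchanged. Apoe stood above the mean level of the astrocyte markers by 6.46, 5.20 and 5.65 (log2) on control and by 5.17, 4.87 and 5.04 on PLX5622. The groups were apart by 0.033 and the difference was −0.74 (exact permutation p = 0.1, adjusted p = 0.15), or −0.40 without the library labelled control 1 and −0.33 with the third library of each diet exchanged (exact permutation p = 0.6). Both marker levels differ between the labels themselves, so a ratio does not show which of its terms moved. For Apoe, the control libraries at 6.46 and 5.65 were also those that held less of long transcripts. Apoe itself was in the shortest class of length. The ratios were not corrected for transcript length, and its part in the Apoe ratio was not tested.

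**Figure D4:**
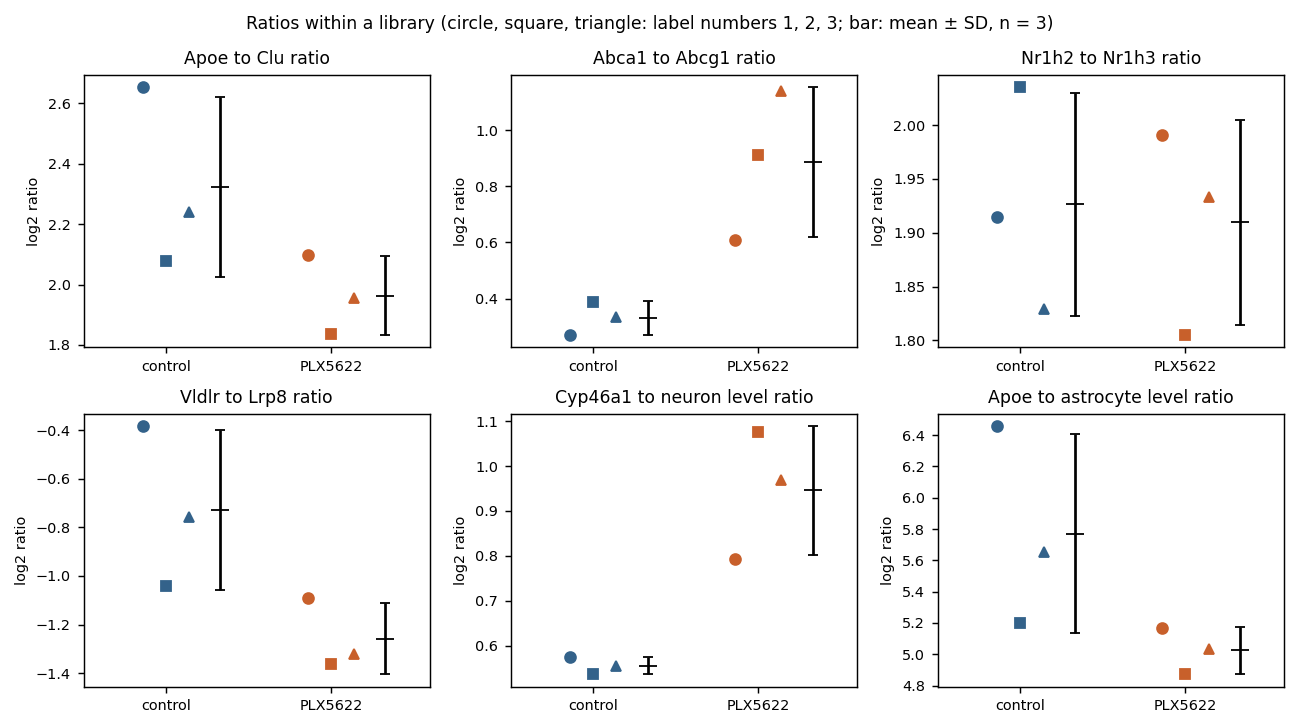
Log2 ratio within each library for 4 pairs of members and for Cyp46a1 and Apoe against the mean level of neuron and astrocyte markers, with mean ± SD (n = 3). The axes do not start at 0, and the PLX5622 libraries lie wholly on the other side of the control libraries for 4 of the 6 ratios (Abca1 to Abcg1, Vldlr to Lrp8, Cyp46a1 to neuron level, Apoe to astrocyte level).

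Among other genes of the same pathways 0 passed by limma in any list, in either direction, and the lowest adjusted p was 0.205. Of 14 other members and handlers of the LDL receptor family tested, 14 were above 0 by label with a median of 0.19. Over all tested genes 61.1% were above 0 and the median was 0.089, or 0.22 in the longest class of transcripts. Of the 14, 5 were above 0 in the authors' deposited table, with a median of −0.026. Lrp4, a receptor of the neuromuscular junction that also acts in astrocytes, stood at 41.8 ± 12.9 and 68.5 ± 9.84 TPM (SD, n = 3), a difference of 0.73 ± 0.20 (log2, SE). Lrp10 differed by 0.39 ± 0.15 and Lrpap1, the chaperone of these receptors, by 0.17 ± 0.12. In the authors' deposited table Lrp4 was at −0.060 (SE 0.31), Lrp10 at 0.074 (SE 0.19) and Lrpap1 at −0.0042 (SE 0.13). Of 9 other ABC lipid transporters 8 were above 0 (median 0.28), led by Abca3 at 0.81 ± 0.31, and Abca2, a transporter of oligodendrocytes, differed by 0.51 ± 0.26. Of these 9, 3 were above 0 in the authors' deposited table, where Abca3 was at 0.044 (SE 0.38) and Abca2 at −0.12 (SE 0.30). Abca2, Abca3 and Lrp4 were lowest in the libraries labelled control 1 and control 3.

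Most other carriers and lipoprotein enzymes were below 0 by label. Of 7 tested apolipoproteins 2 were above 0 (median −0.15), and 5 of the 14 listed were at 0 in at least 1 library. Over all tested genes 61.1% were above 0, and the median was −0.11 in the shortest class of length. The part of transcript length in these lists was not tested. Apod, a lipocalin of oligodendrocytes and astrocytes, stood at 239, 176 and 192 TPM on control and 167, 119 and 135 TPM on PLX5622. Its groups did not overlap, with a difference of −0.53 ± 0.16 (log2, SE, n = 3; limma adjusted p = 0.205) and a value of −0.29 (SE 0.31) in the authors' deposited table. Apoo, a mitochondrial inner membrane protein in spite of its name, differed by −0.15 ± 0.13. In lipoprotein remodelling, Lpl, lipoprotein lipase, stood at 4.93, 5.72 and 5.02 TPM on control and 3.52, 1.56 and 2.29 TPM on PLX5622. Those groups did not overlap either, with a difference of −0.89 ± 0.20 (limma adjusted p = 0.205). Lpl is made by neurons and microglia among other cells, whose markers were lower by label as well, and their part was not tested. Lmf1, which matures lipases, and Pltp, which transfers phospholipid, differed by −0.057 ± 0.11 and −0.25 ± 0.17. Mttp, the 1 of 4 tested remodelling genes above 0, stood at 3.72, 6.72 and 4.95 TPM on control and 6.84, 7.10 and 7.97 TPM on PLX5622. Its groups did not overlap, with a difference of 0.47 ± 0.19, and 0.013 (SE 0.27) in the authors' deposited table.

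Of 7 partners and cofactors of LXR 5 were above 0 by label (median 0.35, and 0.057 in the authors' deposited table). Over all tested genes 61.1% were above 0, with a median of 0.089, or 0.22 in the longest class of transcripts. Ncor1, a corepressor, differed by 0.55 ± 0.19, Ncoa1, a coactivator, by 0.43 ± 0.15 and Rxrb, a partner receptor, by 0.24 ± 0.16 (log2, SE). In the authors' deposited table Ncor1 was at 0.065 (SE 0.27), Ncoa1 at 0.063 (SE 0.22) and Rxrb at 0.057 (SE 0.18). Of 7 other LXR targets 6 were above 0, but their median of 0.10 was near that of all tested genes. Srebf1, the lipogenic factor whose DR4 match is printed above, stood at 103, 136 and 122 TPM on control and 156, 111 and 139 TPM on PLX5622, so the groups overlapped. Its difference was 0.17 ± 0.16, against 0.58 ± 0.20 in Abca1. Lpcat3, a phospholipid acyltransferase, differed by 0.40 ± 0.13 and Smpdl3a, a phosphodiesterase, by 0.17 ± 0.11, and in the deposited table Srebf1, Lpcat3 and Smpdl3a were at −0.0074, 0.039 and −0.0099. The lists share genes: Mylip, Pltp and Abcg4 are LXR targets and stand in another list too.

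Sterol ester and oxysterol genes had a median of 0.19 by label, with 6 of 7 above 0. Over all tested genes the median was 0.089, or 0.22 in the longest class of transcripts, and 61.1% were above 0. Soat1, which esterifies cholesterol for storage, stood at 12.2, 22.1 and 19.3 TPM on control and 23.5, 27.7 and 26.0 TPM on PLX5622, without overlap (0.54 ± 0.20, log2, SE; 0.21 in the authors' deposited table). Cyp7b1 and Hsd3b7, enzymes of oxysterol breakdown, differed by 0.051 ± 0.13 and 0.29 ± 0.15. Of 7 genes of reelin signalling, the pathway downstream of Lrp8 and Vldlr, 6 were above 0 by label (median 0.34) and in the deposited table (median 0.097). Pik3r1, a regulatory subunit of phosphatidylinositol kinase, differed by 0.53 ± 0.15, Fyn, the kinase that phosphorylates the adaptor Dab1, by 0.34 ± 0.16 and Pafah1b1, a dynein regulator, by 0.22 ± 0.15. In the authors' deposited table Pik3r1 was at 0.12 (SE 0.23), Fyn at 0.054 (SE 0.19) and Pafah1b1 at 0.0058 (SE 0.16).

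**Figure D5:**
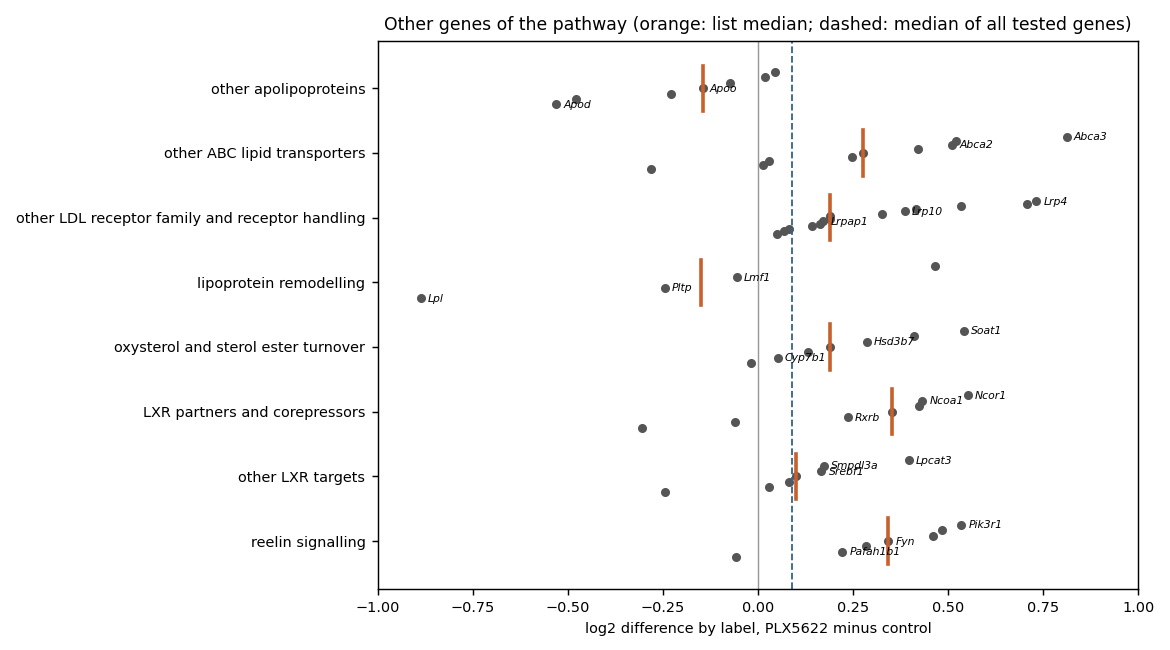
Log2 difference by label of each tested gene in the 8 pathway lists (points), with the list median in orange and the median of all tested genes, 0.089, dashed. Named genes are the 2 most abundant of each list and the one with the largest difference, and none passed the adjusted threshold.

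The genes closest in profile to the members other than Lrp8 were found by the root mean square gap between centred log2(TPM + 1) values over the 6 libraries. Apoe was closest to Cbr1 (0.050) and B9d1 (0.054), Clu to Clasp1 (0.019) and to Smpdl3a (0.028), and Abca1 to Plec (0.039) and Notch2 (0.043). Vldlr was closest to Atrn (0.023) and Sympk (0.025), and Abcg1 to Plekhm3 (0.025) and Tnk2 (0.033). Nr1h2 was closest to Rnf121 (0.013) and Orai3 (0.016), Nr1h3 to Cbfb (0.023) and Synj2bp (0.026), Lcat to Exosc3 (0.037) and Ammecr1l (0.043), and Cyp46a1 to Carns1 (0.022) and Hdac10 (0.023). No member was among the 2 genes closest to another of these members. With 6 libraries and 13084 genes close profiles are easily found, and they describe these libraries only.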

How the data were processed

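The submitters' processing notes name build mm39, DESeq2 1.32.0, R 4.1.0, Subread 2.0.1, featureCounts and STAR 2.7.10a, and the gene lengths, annotation and filters are not given in the sources used. Libraries were not stranded, per the labels' protocols. One deposited table holds the authors' TPM values, which keep no read depth, so no counting interval can be had. The other has the column names of DESeq2 output: baseMean, the authors' signal (a mean normalized count), deposited log2 fold changes and their errors, a deposited test score, and the authors' p-values. Its 95% intervals were computed from the deposited errors.

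By label, log2(TPM + 1) was fitted with limma 3.58.1 (R 4.3.3, trended variance, two-sided) for the 13084 genes at or above a mean of 1 TPM, and Benjamini-Hochberg adjustment covered them all. The pseudocount shrinks the fold changes of low genes. Biological replicates are labelled without naming animals, so p-values measure the spread between these samples. The fit was also run on simulated data with independent noise for each gene. Those data hold neither a length trend nor exchanged headings, so they cannot speak to either. Relative length is deposited baseMean over mean TPM. Cell type levels are mean log2(TPM + 1) of the markers. From each pathway list the 2 genes with the highest mean TPM and the one with the largest difference were named, and Mttp in addition. Alternatives were other pseudocounts, filters, scalings, a loess on length, a replicate block and left-out or exchanged libraries. Members, lists and tests were chosen with earlier results of these data known. The profiles closest to Lrp8 are not reported here.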

Additional observations from a re-analysis of the deposited data

How the results depend on the processing

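Leaving out each library in turn gave between 0 and 3 members called and between 0 and 3754 of all genes called. The 3 members, called without the library labelled control 2, were Abca1, Lrp8 and Vldlr, a share near that of all genes there (28.7%). Of all genes, 3754 were called without that library, 36 without the one labelled PLX5622 1, and 14 without the third library of both diets, where 0 members were. Under the remaining alternatives 0 members were called, and 0 genes in all. Abca1 turned to −0.077 with the third library of each diet exchanged. Abcg1 turned to −0.058 with size factors, to −0.20 with loess on transcript length, with or without the replicate block, to −0.054 without the third library of each diet and to −0.094 with them exchanged, and ran from −0.075 to 0.19 over single left-out libraries. The ratio of Nr1h2 to Nr1h3 ran from −0.066 to 0.037 in the same way. The causes were not tested. The other 8 members kept their direction under every alternative run. The other 5 ratios kept theirs with the other pseudocount, the replicate block and left-out or exchanged libraries. Ratios were not run with the loess on transcript length, size factors, other filters or without the variance trend.

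No pairing by replicate number was seen. Deviations of same-numbered libraries from their labelled group means correlated at −0.033, −0.27 and −0.15 across genes. Of the 3 libraries of either diet, 0 matched best with its own number. As the headings of the third libraries are in doubt, this cannot settle if the samples were prepared in pairs. With the replicate block 0 members and 0 genes were called, and Lrp8 had an adjusted p of 0.181. The read depth of each library is unknown, so no counting error of a single library can be given. In the authors' deposited table the mean normalized count was lowest for Nr1h3, at 520. Abcg1 followed at 1132 and Vldlr at 1682, although these 2 were the lowest members in TPM.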
